A study of Mus musculus with 24 samples.

Results

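The genotype by novelty interaction compares how much 1 h in a new environment changes hippocampal gene expression in mice without Kdm5c and in wild-type mice. For each gene it is the novelty response in KO (KO after novelty over untreated KO) minus the novelty response in wild type (wild type after novelty over untreated wild type), on the log2 scale. The same number is also the KO against wild-type difference after novelty minus that difference without treatment. A non-zero value can therefore be split into a difference that exists at baseline and a difference that exists after novelty. Both are given for several lists and genes. The contrast takes 12 of the 18 libraries of the series, 3 in each of 4 groups. The rule that chose them uses sample labels and no measured value.

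The groups were KO after novelty, untreated KO, wild type after novelty and untreated wild type. KO mice carry a null allele of the X-linked gene Kdm5c, and the labels name no Cre driver or tissue restriction. All mice were males aged 2 to 4 months on a mixed F1 background of C57 and 129, and each library was made from the hippocampal RNA of 3 pooled mice. Novelty meant 1 h in which each animal alone explored a white Plexiglas box with tubing and toys. Untreated animals received no such exposure. Pooling hides the spread between single mice, and in bulk tissue fewer cells of a type cannot be told from less RNA per cell.

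Kdm5c removes methyl groups from lysine 4 of histone H3, a mark of active promoters and enhancers. When neurons fire during exploration, kinases act on transcription factors that are already present, and immediate early genes such as Fos, Arc and the Egr family are transcribed within minutes without new protein. Their products, many of them transcription factors, then drive delayed activity-regulated genes, while induced phosphatases such as Dusp5 and Dusp6 damp the kinase signal. A new environment also raises circulating corticosterone in rodents, which acts through the glucocorticoid receptor on its own target genes.

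The libraries held 16024152 to 45600483 counts in genes. Untreated wild-type library 1 was the shallowest and untreated KO library 1 the deepest. KO library 2 and wild-type library 1 of the novelty groups stood farthest from the other libraries of their group. Their root mean square deviations over genes were 0.30 and 0.29 log2, against 0.13 to 0.24 for the other 10. These deviations followed gene GC content in opposite directions, with Spearman correlations over genes of -0.53 in KO library 2 and 0.71 in wild-type library 1. Such trends were not particular to them: wild-type novelty library 2 had -0.625 and KO novelty library 3 had 0.547, and the other 8 lay between -0.425 and 0.438. For several results, values with both left out are given as well. Markers of hippocampal neurons were present throughout, with list levels, as mean log2(CPM + 0.5), of 5.75 to 6.06 for CA1, 4.98 to 5.12 for CA2 and CA3 and 5.18 to 5.66 for dentate granule cells. The choroid plexus marker Ttr, a transport protein made by the epithelium that lies beside the hippocampus, reached 544 CPM (the usual rate of counts per library, with TMM scaling) in untreated KO library 2, against 5.47 to 38.3 CPM in the other 11.

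Kdm5c itself was counted at 78.5, 77.8 and 86.5 CPM in KO after novelty and 75.8, 76.3 and 75.4 CPM in untreated KO. Wild type had 100.04, 90.2 and 96.0 CPM after novelty and 75.4, 74.2 and 76.4 CPM untreated. The untreated groups overlap, so the summed count of this gene (ENSMUSG00000025332, chrX:152233020-152274535, + strand, GRCm38) does not tell the untreated genotypes apart. After novelty all KO libraries lay below all wild-type libraries. A sum over all exons cannot show whether part of the gene is missing. Genotypes rest on the labels, and the germline genes described further on are not a test of them. Kdm5c rose with novelty in wild type by 0.34 ± 0.06 log2 (SE, n = 3 libraries a group, adjusted p = 0.0387 by edgeR's quasi-likelihood test), while in KO the change was 0.09 ± 0.06 (adjusted p = 0.866). The difference of these responses was -0.25 ± 0.09, with an adjusted p of 0.9999. The KO against wild-type difference was -0.24 ± 0.06 after novelty and 0.01 ± 0.06 untreated, and neither passed (adjusted p = 0.1075 and 0.9826 by edgeR).

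No gene passed the interaction test. Of 16392 genes tested, 0 had an adjusted p under 0.05 by edgeR's quasi-likelihood test (0.00%), and 563 had an unadjusted p under 0.05 (3.43%), 334 with a positive (2.04%) and 229 with a negative interaction (1.40%). The smallest adjusted p was 0.9999. DESeq2 also called 0, with 430 genes at an unadjusted p under 0.05. That number depended on the fit, in others that also called 0. It was 497 with a stricter count filter, 996 with offsets for GC content and transcript length and 2429 with sample quality weights. Each library left out in turn also gave 0, with 418 (without untreated wild-type library 2) to 1407 (without wild-type novelty library 1) at an unadjusted p under 0.05. With no filter on low counts 8 genes passed, 6 positive and 2 negative. With the deviating novelty libraries, KO library 2 and wild-type library 1, both left out, 331 genes passed, 29 positive and 302 negative. In that fit the interaction followed GC content across all genes, with a Spearman correlation of 0.523 against 0.108 with all 12 libraries. Offsets for GC content and transcript length, added after seeing the data, brought this count to 30, 11 positive and 19 negative, of which 25 were among the 331.

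The parts of the contrast did hold calls. Novelty changed 18 genes in KO (0.110% of those tested), all of which rose, and 63 in wild type (0.384%), of which 57 rose (0.348%) and 6 fell (0.0366%). Averaged over the genotypes it changed 222 genes (1.35%), 175 rising (1.07%) and 47 falling (0.287%). KO differed from wild type at 219 genes after novelty (1.34%, with 1.20% higher and 0.140% lower) and at 204 genes untreated (1.24%, with 1.09% higher and 0.159% lower). Single libraries moved the novelty counts: the KO count was 1 without KO novelty library 1, untreated KO library 2 or untreated KO library 3, and 27 without wild-type novelty library 1. The wild-type count was 4 without wild-type novelty library 3, 5 without untreated wild-type library 1 and 102 without wild-type novelty library 1. The average count was 91 without wild-type novelty library 3 or untreated wild-type library 3. The counts in KO and in wild type do not compare the responses, since a gene can pass in one genotype and narrowly miss in the other. That comparison is the interaction.

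**Figure D1:**
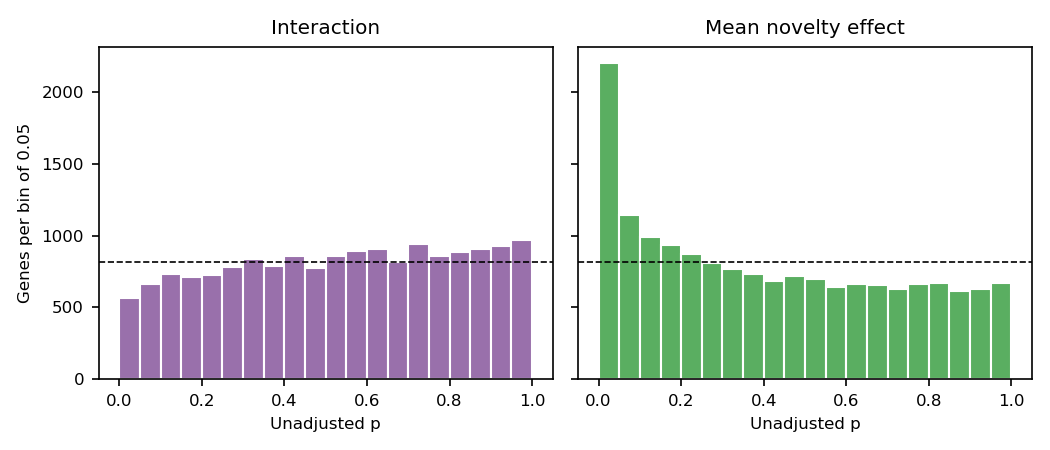
Histograms of unadjusted p over the 16392 genes tested, for the interaction (left) and for the novelty effect averaged over genotypes (right). The x axis is the p of edgeR's quasi-likelihood test in bins of 0.05, the y axis is the number of genes per bin, and the dashed line is an even spread over the bins. The lowest bin holds 563 genes for the interaction, below the dashed line, and 2206 for the novelty effect, far above it.

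The precision of the interaction depends on the level of the gene. The median standard error of the interaction was 0.16 log2, so the 95% interval of a typical gene reached 0.35 log2, or 1.28-fold, to either side. For genes of 10 to 100 CPM it reached 0.28 log2 and for genes of 1 to 10 CPM 0.56 log2. Below 1 CPM it reached 1.16 log2, so the interval of such a gene spans differences of that size. These intervals are not adjusted for the number of genes tested, and larger differences missed the adjusted threshold, such as 0.90 log2 for Adcyap1 and 0.77 for Htr7.

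Immediate early genes had the largest median rise with novelty of the lists described here, in KO and in wild type. Of 36 tested members, 24 rose in the average over genotypes (1.07% of all genes) and none fell (0.287%). By genotype, 5 rose in KO (0.110%) and 14 in wild type (0.348%). The median change was 0.58 log2 in KO and 0.88 log2 in wild type, against 0.00 over all genes in both. Fosb, a subunit of the AP-1 transcription factor, had 35.2, 30.2 and 30.2 CPM in KO after novelty and 14.0, 6.93 and 12.3 CPM in untreated KO. In wild type it had 32.1, 32.0 and 38.7 CPM after novelty and 4.93, 10.99 and 8.53 CPM untreated. The groups after novelty and untreated did not overlap in either genotype. Fosb rose by 1.498 ± 0.23 log2 in KO (adjusted p = 0.0329) and by 2.05 ± 0.24 in wild type (adjusted p = 0.00487). The interaction was -0.55 ± 0.34 and did not pass.

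The promoters of 3 genes are shown, from a gene that rose in both genotypes (Fosb), from the early gene with the most negative interaction (Egr2) and from the gene with the smallest interaction p (Adcyap1). Each is the 250 bases before the RefSeq transcript start on GRCm38.p6, read 5′ to 3′ on the strand of the gene: chr7:19310046-19310295 (- strand) for Fosb, chr10:67537619-67537868 (+ strand) for Egr2 and chr17:93198918-93199167 (+ strand) for Adcyap1. Capitals mark the core of the cAMP response element, TGACG or its reverse complement CGTCA, bound by CREB, and in Egr2 also a CArG box, the site of serum response factor.

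Fosb: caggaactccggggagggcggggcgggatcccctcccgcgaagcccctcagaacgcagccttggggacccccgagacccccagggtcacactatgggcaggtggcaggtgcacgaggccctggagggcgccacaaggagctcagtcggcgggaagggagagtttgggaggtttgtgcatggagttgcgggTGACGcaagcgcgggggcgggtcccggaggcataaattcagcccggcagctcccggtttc
Egr2: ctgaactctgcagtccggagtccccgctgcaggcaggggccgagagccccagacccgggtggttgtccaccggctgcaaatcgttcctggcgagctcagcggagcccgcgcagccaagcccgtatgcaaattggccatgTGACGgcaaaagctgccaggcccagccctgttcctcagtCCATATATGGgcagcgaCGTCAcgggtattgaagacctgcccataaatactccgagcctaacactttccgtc
Adcyap1: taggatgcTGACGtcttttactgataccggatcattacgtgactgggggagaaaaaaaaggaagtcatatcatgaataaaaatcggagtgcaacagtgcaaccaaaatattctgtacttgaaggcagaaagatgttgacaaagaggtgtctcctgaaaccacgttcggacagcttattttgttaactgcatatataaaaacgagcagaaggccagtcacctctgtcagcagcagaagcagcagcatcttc

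The core starts 60 bases before the transcript start in Fosb, 111 and 55 bases before it in Egr2 and 242 bases before it in Adcyap1, and the CArG box starts 72 bases before it in Egr2. None of these matches overlap. Searched on both strands, the core was present in 20 of the 29 immediate early genes with a promoter in the table (69.0%), in 60 of 136 genes that rose with novelty (44.1%) and in 3475 of 11972 genes tested (29.0%). The CArG box was present in 1 of the 29, 5 of the 136 and 167 of the 11972. A match in these windows is a description of the letters and not of binding.

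**Figure D2:**
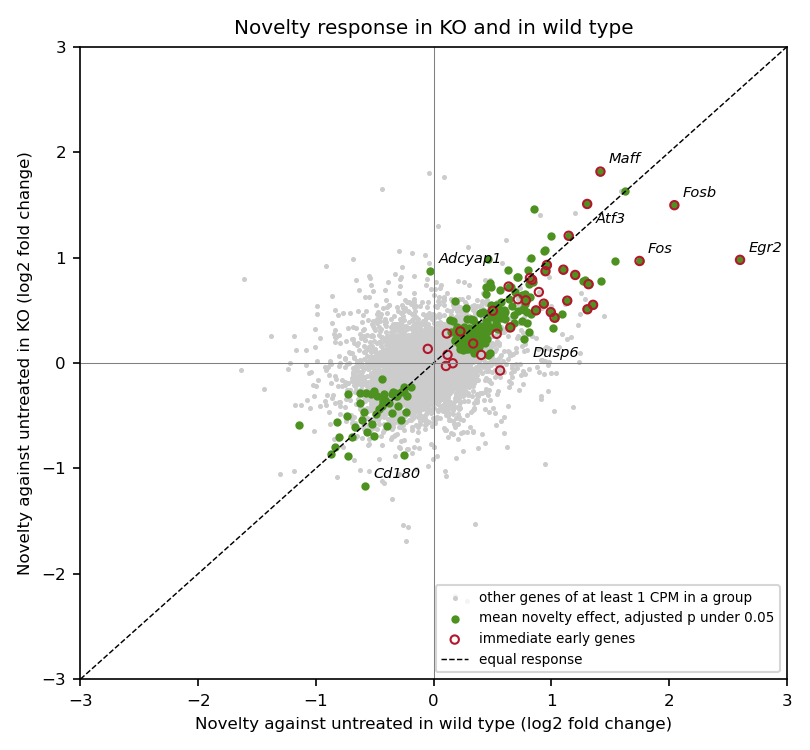
Novelty response of each gene in KO (y axis) against that in wild type (x axis), both as log2 fold change of novelty over untreated, for genes of at least 1 CPM in a group. Green points passed the test of the novelty effect averaged over genotypes, red circles are immediate early genes, and the dashed line marks equal responses. Most green points lie near the line, Egr2 lies farthest below it with 0.98 in KO and 2.60 in wild type, and 2 of 14767 genes lie outside the axes.

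Split by state, the immediate early genes of the genotypes differed in the median without treatment and hardly after novelty. The median KO against wild-type difference over the 36 members was 0.02 log2 after novelty, with 19 positive, and 0.33 log2 untreated, with 30 positive. Over all genes the corresponding medians were 0.00 and 0.00. No member passed the KO against wild-type test in either state. The median interaction was -0.20 log2, with 7 of 36 positive, and 4 members had an unadjusted p under 0.05, all of them lower (1.40% of all genes). With no gene past the adjusted threshold, these medians describe the list and are not a test of it.

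The level of the list in each library, was calculated as mean log2(CPM + 0.5). It was 5.12, 5.02 and 5.05 in KO after novelty and 4.65, 4.16 and 4.58 in untreated KO. It was 5.03, 4.96 and 5.12 in wild type after novelty and 3.82, 4.42 and 4.23 in untreated wild type. The novelty libraries of the genotypes were interleaved and close together. The untreated libraries spread widely in both genotypes and overlapped, with untreated KO library 2 below untreated wild-type libraries 2 and 3. The lowest untreated wild-type library was library 1, which was also the shallowest of the 12. Without it the median interaction of the list was -0.12 log2 and the median untreated difference 0.18 log2, and without untreated wild-type library 2 they were -0.35 and 0.36. Without untreated KO library 2 they were -0.35 and 0.43, and without untreated KO library 1 they were -0.14 and 0.21. With untreated wild-type library 1 and untreated KO library 2 both left out, an alternative chosen after seeing the data, they were -0.16 and 0.33.

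Dentate granule cell markers, from cells where exploration induces many early genes, also had mostly negative interactions, with a median of -0.16 log2 and 2 of 15 positive. Their level was 5.18 to 5.34 in KO after novelty, 5.28 to 5.42 in untreated KO, 5.31 to 5.66 in wild type after novelty and 5.37 to 5.53 in untreated wild type. Of them 2, Npnt and Plk5, were lower in KO after novelty (0.140% of all genes), by -0.53 ± 0.09 and -0.55 ± 0.12 log2 (adjusted p = 0.00915 and 0.0458 by edgeR). The median genotype difference of the 15 was -0.22 after novelty and -0.06 untreated. No marker of this list passed untreated, where 3 were lower and 1 higher at an unadjusted p under 0.05. The part of these markers in the values of the early genes was not tested. Without wild-type novelty library 2 or untreated KO library 1 the dentate median was -0.08 or -0.09. It came to -0.28 when wild-type novelty library 1 was left out.

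Members whose libraries do not overlap were counted next. All 3 KO novelty libraries lay above all 3 untreated KO libraries for 24 of 36 members (8.60% of all genes), and the wild-type novelty libraries above the untreated ones for 30 of 36 (8.30%). Untreated KO lay fully above untreated wild type for 3 members (11.6% of all genes). KO after novelty lay fully above wild type after novelty for 2 members (6.64%) and fully below for 3 (4.56%). These genotype counts lie near the shares among all genes.

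Egr2 (ENSMUSG00000037868), a zinc finger transcription factor of the early growth response family, had the most negative interaction of the list. It had 19.4, 17.2 and 18.1 CPM in KO after novelty and 12.2, 4.76 and 10.1 CPM in untreated KO. In wild type it had 19.9, 18.5 and 21.7 CPM after novelty and 0.987, 5.07 and 3.40 CPM untreated. The novelty groups overlapped, and untreated KO lay above untreated wild type except for KO library 2, which fell between wild-type values. The response was 0.98 ± 0.32 log2 in KO (adjusted p = 0.481) and 2.60 ± 0.37 in wild type (adjusted p = 0.00973). The interaction was -1.62 ± 0.49 (95% interval -2.67 to -0.58), with an unadjusted p of 0.00474 and an adjusted p of 0.9999 by edgeR. Its parts were a KO against wild-type difference of -0.13 ± 0.31 after novelty and of 1.49 ± 0.38 untreated, and neither passed (adjusted p = 0.979 and 0.0821). Over the alternatives the interaction lay between -2.11 (without untreated wild-type library 2) and -1.28 (without untreated wild-type library 1), and it passed when the low-count filter was dropped (adjusted p = 0.00229).

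Fos, an AP-1 subunit like Fosb, had 48.2, 38.9 and 44.3 CPM in KO after novelty and 25.8, 14.5 and 26.3 CPM in untreated KO. In wild type it had 44.7, 42.4 and 53.1 CPM after novelty and 4.44, 22.0 and 14.2 CPM untreated. The untreated groups overlap, and untreated wild-type library 1 is the lowest of the 12. The interaction of Fos was -0.78 ± 0.48 (adjusted p = 0.9999). Arc, whose product traffics AMPA receptors away from synapses, and Npas4, a neuron-specific activity-dependent transcription factor, had interactions of -0.80 ± 0.43 and -0.80 ± 0.37. Their untreated differences were 0.79 ± 0.31 and 0.56 ± 0.27, and their differences after novelty -0.01 ± 0.30 and -0.24 ± 0.26. Btg2, a growth-inhibiting early gene, and Klf10, a zinc finger repressor, were the further members with an unadjusted p under 0.05, at -0.64 ± 0.23 and -0.33 ± 0.13.

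Other early genes rose in both genotypes with interactions near 0. Fosl2, also of AP-1, had 103.9, 110.6 and 109.0 CPM in KO after novelty and 66.3, 52.3 and 57.8 CPM in untreated KO. It had 125.6, 111.9 and 127.8 CPM in wild type after novelty and 60.2, 65.9 and 62.7 CPM untreated. It rose by 0.87 ± 0.09 in KO (adjusted p = 0.00184) and 0.95 ± 0.09 in wild type (adjusted p = 0.000665), and the interaction was -0.08 with a 95% interval of -0.34 to 0.18. Gadd45b, a stress-inducible gene tied to DNA demethylation, rose by 0.93 ± 0.13 in KO and 0.96 ± 0.13 in wild type (interaction -0.03 ± 0.18). The nuclear receptor gene Nr4a2 rose by 0.73 ± 0.12 and 0.64 ± 0.12, with an interaction of 0.09 ± 0.17. The small Maf gene Maff had the most positive interaction of the list, 0.40 ± 0.48.

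**Figure D3:**
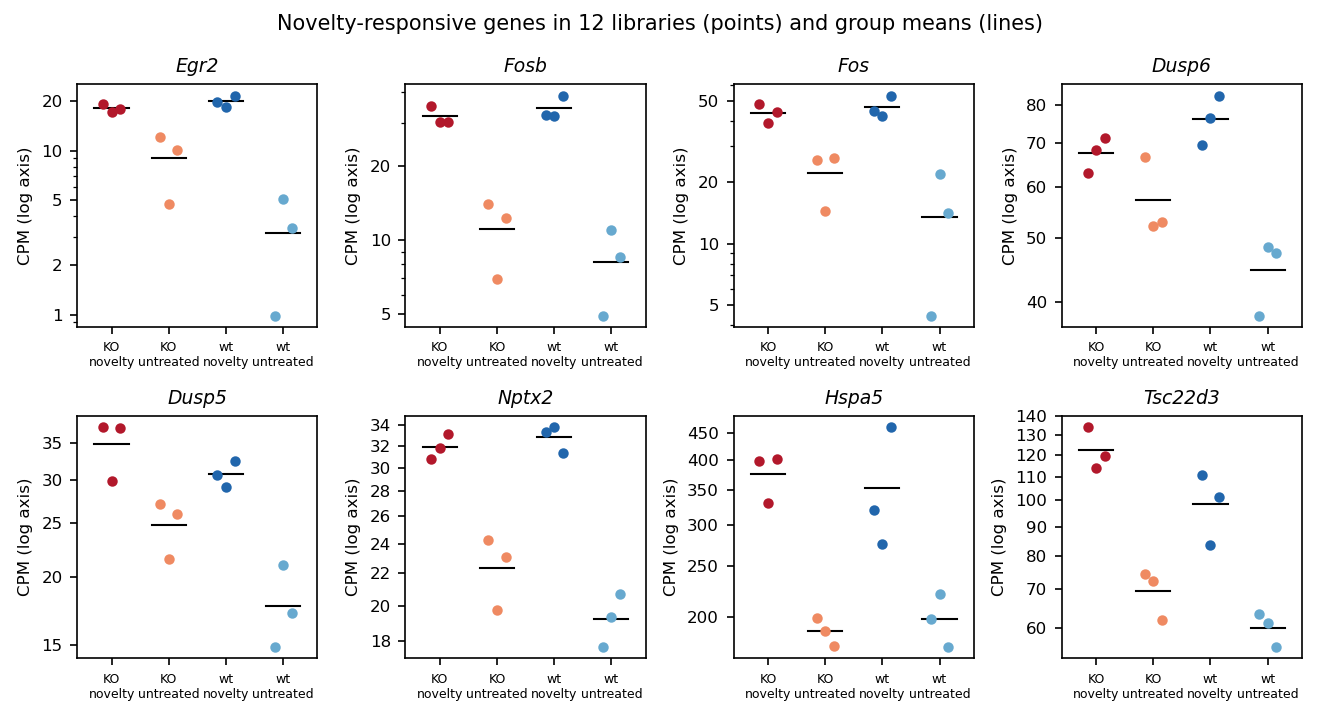
CPM on log axes in the 12 libraries for 8 genes that rose with novelty in the average over genotypes. Points are libraries, horizontal lines are group means, and groups run from KO after novelty to untreated wild type. For Egr2 the novelty groups lie at 17.2 to 21.7 CPM in both genotypes while the untreated groups lie at 4.76 to 12.2 CPM in KO and 0.987 to 5.07 CPM in wild type, whereas Hspa5 and Tsc22d3 have untreated groups that lie close together.

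Genes that feed back on the MAP kinase pathway had smaller responses than the early genes. Of 14, 6 rose on average (1.07% of all genes) and none fell. The median response was 0.18 log2 in KO and 0.28 log2 in wild type, and the median genotype difference 0.00 after novelty and 0.15 untreated. Dusp6, the cytoplasmic phosphatase of ERK, had 62.9, 68.3 and 71.3 CPM in KO after novelty and 66.7, 52.3 and 53.0 CPM in untreated KO. Wild type had 69.6, 76.4 and 82.8 CPM after novelty and 38.0, 48.5 and 47.5 CPM untreated. The KO groups overlap and the wild-type groups do not. Its interaction of -0.53 ± 0.16 had an unadjusted p of 0.00503 and an adjusted p of 0.9999 in the edgeR fit. Dusp5, the nuclear ERK phosphatase, rose by 0.79 ± 0.13 in wild type (adjusted p = 0.0234) and had a value of 0.49 ± 0.12 in KO (adjusted p = 0.303), with an interaction of -0.31 ± 0.18. Errfi1, an inhibitor of the EGF receptor, rose in both genotypes, by 0.51 ± 0.07 in KO and 0.60 ± 0.07 in wild type (interaction -0.09 ± 0.10).

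Of 33 delayed activity-regulated genes, 8 rose in the average over genotypes (1.07% of all genes), 2 in KO (0.110%) and 3 in wild type (0.348%). Their median response was 0.24 log2 in both genotypes, and their median interaction -0.11. Nptx2, a secreted pentraxin that clusters AMPA receptors, had 30.8, 31.8 and 33.1 CPM in KO after novelty and 24.3, 19.7 and 23.1 CPM in untreated KO. Wild type had 33.3, 33.8 and 31.3 CPM after novelty and 17.7, 19.4 and 20.7 CPM untreated. It rose by 0.51 ± 0.09 in KO (adjusted p = 0.0451) and 0.77 ± 0.09 in wild type (adjusted p = 0.00487), and the interaction was -0.26 ± 0.12. Bdnf, a neurotrophin, had an interaction of -0.29 ± 0.15, from a genotype difference of -0.01 ± 0.10 after novelty and 0.28 ± 0.10 untreated. None of these differences passed, and without both deviating novelty libraries Bdnf was among the 331 genes called, as was the scaffold gene Homer1.

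Glucocorticoid response genes had mostly positive interactions. Of 23, 11 rose on average over genotypes (1.07% of all genes), 6 in KO (0.110%) and 5 in wild type (0.348%). The interaction was positive for 17 of 23, against 8297 of 16392 over all genes, with a median of 0.12 log2. The median response was 0.40 log2 in KO and 0.29 log2 in wild type, and the median genotype difference 0.22 after novelty and 0.12 untreated. KO after novelty lay fully above wild type after novelty for 11 of 23, against 6.64% of all genes, and untreated KO above untreated wild type for 6, against 11.6%. No interaction of the list passed. Leaving out KO novelty library 1 or untreated KO library 3 took the median interaction to 0.07, and leaving out KO novelty library 2 or untreated KO library 2 took it to 0.20 or 0.19.

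Tsc22d3, an anti-inflammatory mediator of glucocorticoids, had 134.2, 113.6 and 119.4 CPM in KO after novelty and 74.3, 72.2 and 61.9 CPM in untreated KO. Wild type had 110.6, 83.5 and 101.4 CPM after novelty and 63.4, 61.2 and 55.4 CPM untreated. KO lay fully above wild type after novelty, and the untreated groups overlapped at their edges. It rose by 0.82 ± 0.11 in KO (adjusted p = 0.0123) and 0.72 ± 0.11 in wild type (adjusted p = 0.0149), with an interaction of 0.10 ± 0.15. Sgk1, a kinase that regulates ion transport, was the member that also differed between genotypes without treatment, higher in KO by 0.37 ± 0.08 (adjusted p = 0.0457). After novelty that difference was 0.25 ± 0.08 (adjusted p = 0.249), and the interaction was -0.12 ± 0.12. Pdk4, which inhibits pyruvate dehydrogenase, passed in KO at 0.76 ± 0.12 and missed in wild type at 0.48 ± 0.12 (adjusted p = 0.0363 and 0.134). Its interaction of 0.27 ± 0.17 did not pass. The members with an unadjusted p under 0.05 were Sult1a1, a sulfotransferase, at 0.51 ± 0.19, and Gjb6, an astrocyte connexin, at 0.27 ± 0.12.

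Of 20 endoplasmic reticulum chaperones, 10 rose in the average over genotypes (1.07% of all genes), 2 in KO (0.110%) and 2 in wild type (0.348%). Their median response was 0.33 log2 in KO and 0.33 log2 in wild type. Their median interaction was 0.01, close to that of all genes. Hspa5, the main chaperone of that compartment, had 397.4, 330.4 and 400.5 CPM in KO after novelty and 199.2, 188.4 and 176.0 CPM in untreated KO. Wild type had 320.9, 275.4 and 461.8 CPM after novelty and 198.0, 221.2 and 175.1 CPM untreated. It rose by 1.00 ± 0.15 in KO and 0.83 ± 0.15 in wild type, both groups clear of their untreated libraries, with an interaction of 0.17 ± 0.22. Of 16 cytosolic heat shock genes, 6 rose in the average (1.07% of all genes), and the median interaction was 0.05. Dnajb1, a co-chaperone, changed by 0.77 ± 0.13 in KO (adjusted p = 0.056) and rose by 0.85 ± 0.13 in wild type (adjusted p = 0.0209). Of 19 circadian clock genes 5 rose in the average (1.07%), among them Per1 and Per2, whose interactions were -0.31 ± 0.16 and -0.23 ± 0.13.

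**Figure D4:**
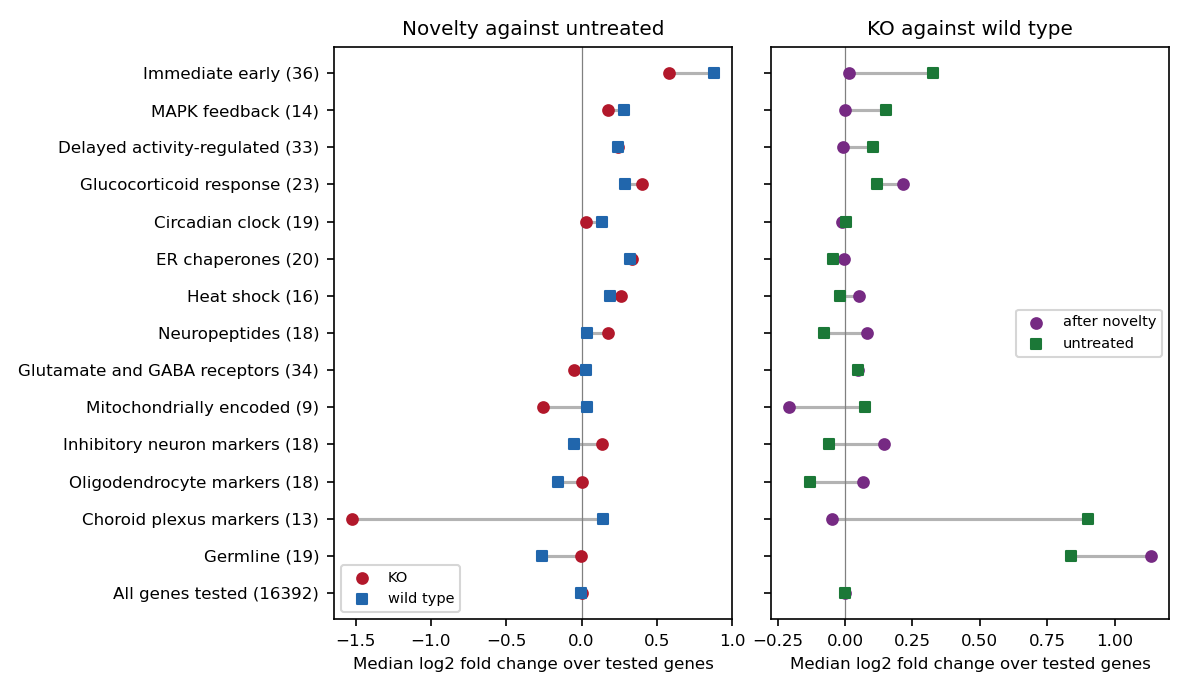
Median log2 fold change over the tested genes of each list, with the number of tested genes in brackets. The left panel gives novelty over untreated in KO (circles) and wild type (squares), the right panel KO over wild type after novelty (circles) and untreated (squares), and the grey line between them is the split described in the text. Immediate early genes show a gap at baseline (0.33 untreated and 0.02 after novelty), and choroid plexus markers differ by 0.90 untreated and -0.05 after novelty, with 1 untreated KO library far above the rest.

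The genes called for novelty were then compared between genotypes. Of the 63 genes called in wild type, 12 were also called in KO, which is 19% of the wild-type calls and 66.7% of the KO calls, all in the same direction. The other 51 wild-type calls all had the same sign in KO, and 44 of them had an unadjusted p under 0.05 there (6.71% of all genes did). Of the 6 genes called in KO and not in wild type, 5 had the same sign in wild type. The 12 genes with an unadjusted interaction p under 0.05 among the 51 (3.43% of all genes were under it) include Egr2, Dusp6, Kif26b and Ago2. Since the wild-type response is part of the interaction, that count is a description.

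A choice of genes that does not fix the sign of the interaction is the novelty effect averaged over genotypes. Of its 222 genes, 221 had the same sign in both genotypes. Choosing genes for a large average favours equal signs, so that count is a description. Among the 175 that rose, the median was 0.40 log2 in KO and 0.46 log2 in wild type, the median interaction -0.09, and 56 interactions were positive. The genotype difference of these genes was positive for 129 of 175 untreated (median 0.07) and for 80 of 175 after novelty (median -0.01). Among the 47 that fell, the median was -0.41 in KO and -0.47 in wild type, and the median interaction 0.03. Cd180, a microglial and B cell receptor of the Toll-like family, had 1.62, 1.17 and 1.10 CPM in KO after novelty and 2.82, 3.42 and 2.67 CPM in untreated KO, against 1.13, 1.55 and 1.33 CPM in wild type after novelty and 1.60, 2.18 and 2.18 CPM untreated. It fell on average, with an interaction of -0.58 ± 0.30 that did not pass.

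The novelty and genotype comparisons share libraries, so their calls are set side by side only as counts. Of the 222 novelty genes, 3 differed between KO and wild type in either state: Sgk1 untreated, and Kif26b and Sipa1l2 after novelty, named here because the count is small. Over all genes 1.24% were called untreated and 1.34% after novelty, so these counts are near or below the share of all genes. Kif26b, a kinesin family member, had 34.3, 42.1 and 36.7 CPM in KO after novelty and 36.6, 32.5 and 36.3 CPM in untreated KO. It had 54.4, 55.0 and 55.0 CPM in wild type after novelty and 38.1, 37.9 and 42.2 CPM untreated. Wild type after novelty stood alone above the other groups. It rose in wild type by 0.48 ± 0.08 (adjusted p = 0.0274) and was lower in KO after novelty by -0.54 ± 0.08 log2 (adjusted p = 0.00278). The response in KO was 0.10 ± 0.08, and the interaction of -0.38 ± 0.12 had an adjusted p of 0.9999. With both deviating novelty libraries left out the interaction was -0.47 (adjusted p = 0.0392 by edgeR). With offsets as well it was -0.21 (adjusted p = 0.331).

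The genes with the smallest interaction p are given as values that did not pass with all 12 libraries and the low-count filter. Among those with a positive interaction, the top was Adcyap1 (ENSMUSG00000024256), which encodes the neuropeptide PACAP. It had 6.97, 7.25 and 5.37 CPM in KO after novelty and 3.85, 3.28 and 3.48 CPM in untreated KO. It had 5.27, 4.52 and 5.45 CPM in wild type after novelty and 5.12, 4.98 and 5.38 CPM untreated. Untreated KO lay below the other groups, and the wild-type groups overlapped. Adcyap1 rose in KO by 0.87 ± 0.14 (adjusted p = 0.0329), while the wild-type change was -0.03 ± 0.14 (adjusted p = 0.974). The interaction was 0.90 ± 0.19 (95% interval 0.49 to 1.31) with an unadjusted p of 0.000389 and an adjusted p of 0.9999 by edgeR. It divides into a genotype difference of 0.36 ± 0.13 after novelty and -0.53 ± 0.14 untreated, neither of which passed. Over the alternatives the interaction ranged between 0.81 and 1.01 and did not pass in any of them, the lowest adjusted p being 0.054 with both deviating novelty libraries left out.

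Cntn6, a contactin of neuronal cell adhesion, had 8.64, 8.73 and 6.37 CPM in KO after novelty and 7.08, 6.29 and 7.34 CPM in untreated KO. It had 6.47, 5.46 and 7.07 CPM in wild type after novelty and 10.5, 10.4 and 9.37 CPM untreated, so untreated wild type stood above the rest. Its interaction was 0.87 ± 0.19. Htr7, a serotonin receptor coupled to cAMP, had 12.9, 11.7 and 11.6 CPM in KO after novelty and 9.48, 8.83 and 10.6 CPM in untreated KO, against 11.3, 8.27 and 9.39 CPM in wild type after novelty and 11.9, 14.9 and 12.6 CPM untreated. Its interaction of 0.77 ± 0.18 passed when both deviating novelty libraries were left out, without offsets at 0.93 (adjusted p = 0.0357) and with them at 0.90 (adjusted p = 0.0473).

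The other positive genes by the same rule were Car10, Tmsb10, Dpp10, Vwc2l, Cplx3, Tshz2 and Arhgap6, at 0.45 to 1.45 log2. All 10 genes combine a negative genotype difference untreated (-0.84 to -0.14) with a positive one after novelty (0.23 to 0.62), none of them past the adjusted threshold. The rule chose these genes for a gap between those 2 differences, which favours opposite signs, so the pattern is a description. Cplx3, a complexin of synaptic vesicle release, had 5.89, 5.66 and 7.27 CPM in KO after novelty and 4.17, 2.96 and 3.59 CPM in untreated KO, against 5.82, 3.04 and 3.41 CPM in wild type after novelty and 9.56, 4.85 and 5.38 CPM untreated. With both deviating novelty libraries left out its interaction was 1.86 (adjusted p = 0.0357 by edgeR), and with offsets as well 1.75 (adjusted p = 0.0584). Tmsb10 likewise passed there without offsets (adjusted p = 0.0447) and not with them (adjusted p = 0.0953). Cplx3 and Tshz2 are known as genes of deep neocortical layers and neighbouring fields. A list of 20 neocortical and subicular markers was therefore added after these genes were seen. Over its 19 tested members the median interaction was 0.12 log2 with 14 positive. Their level, as mean log2(CPM + 0.5), was 4.15 to 4.30 in KO after novelty, 4.15 to 4.23 in untreated KO, 4.04 to 4.12 in wild type after novelty and 4.17 to 4.41 in untreated wild type. It was highest in untreated wild-type library 1, and without that library the median interaction of the list was 0.01. Without untreated KO library 2 it was 0.22 and without untreated KO library 3 it was 0.07. The part of dissection in these gene values was not tested.

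The negative genes by the same rule included Dhx33, Pvr, Gm15624, Gm42979, Zfp236, Gm38190, Slc44a5 and Egr2. Apart from Egr2 their interactions lay between -0.98 and -0.32. Dhx33, an RNA helicase of ribosome production, had 132.4, 133.9 and 136.3 CPM in KO after novelty and 149.9, 147.4 and 141.3 CPM in untreated KO, against 154.5, 171.5 and 150.5 CPM in wild type after novelty and 134.6, 128.2 and 136.2 CPM untreated. KO after novelty lay below wild type after novelty, and untreated KO above untreated wild type, so the order of the genotypes was opposite in the 2 states. Its interaction was -0.38 ± 0.09. With both deviating novelty libraries left out it was -0.40 (adjusted p = 0.0392 by edgeR), and with offsets as well -0.38 (adjusted p = 0.0573). Slc44a5 and Zfp236 also passed in that fit without offsets, at -0.53 and -0.37 (adjusted p = 0.036 and 0.041). With offsets they did not (adjusted p = 0.0811 and 0.206). Gm15624, a noncoding transcript, had 6.12, 5.41 and 6.12 CPM in KO after novelty and 6.99, 8.09 and 7.92 CPM in untreated KO, against 8.29, 8.85 and 8.87 CPM in wild type after novelty and 8.38, 6.72 and 7.22 CPM untreated. It was lower in KO after novelty by -0.55 ± 0.11 log2 (adjusted p = 0.024), and untreated the difference was 0.04 ± 0.11.

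**Figure D5:**
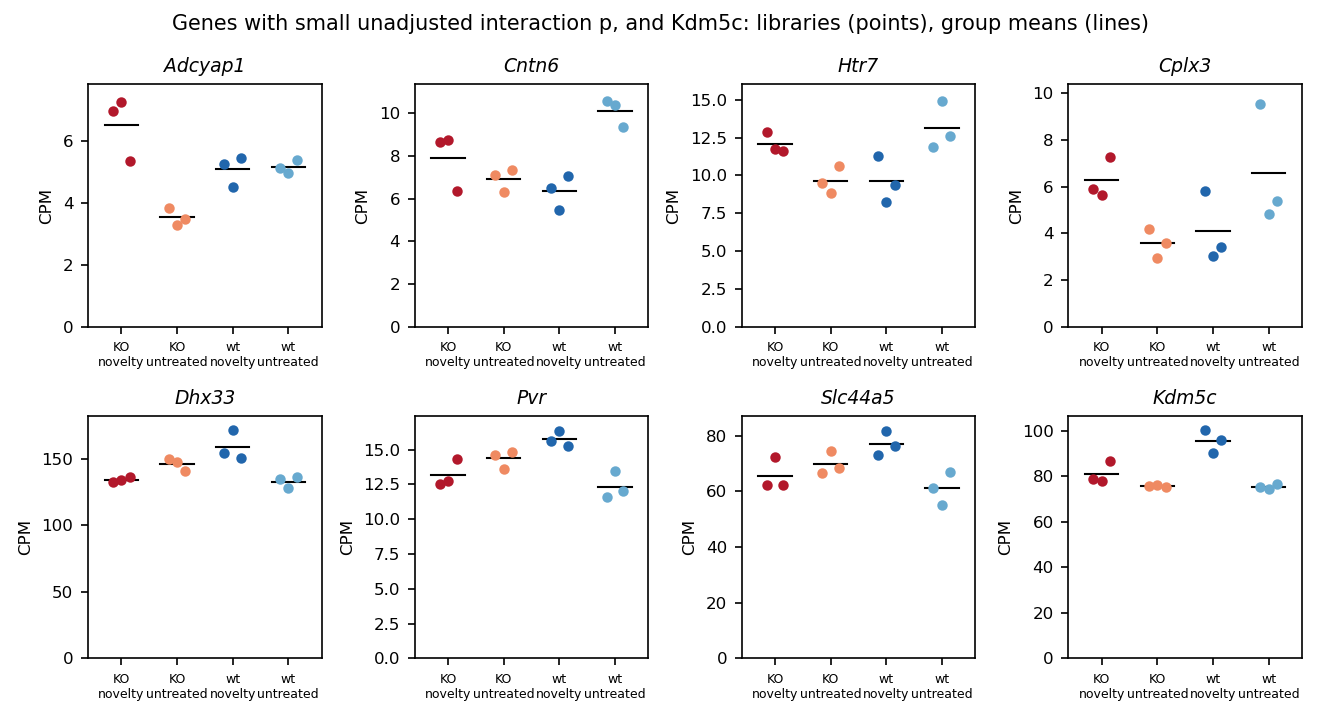
CPM in the 12 libraries for 4 genes with a positive interaction (Adcyap1, Cntn6, Htr7, Cplx3), 3 with a negative one (Dhx33, Pvr, Slc44a5) and Kdm5c. Points are libraries, horizontal lines group means, groups run from KO after novelty to untreated wild type, and axes start at 0. None of these interactions passed with all 12 libraries and the low-count filter, and in Adcyap1 untreated KO (3.28 to 3.85 CPM) lies below the other groups.

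Genes called between the genotypes were compared between the states. KO against wild-type calls were shared at 144 genes, 140 of them higher and 4 lower in KO. For the 140 the median difference was 1.15 log2 after novelty and 1.20 log2 untreated, the median interaction 0.00, and 66 interactions were positive. A gene called in both states is chosen for a difference in each, so these medians are descriptions too. A further 60 genes were called untreated alone and 75 after novelty alone. Of the 60, 58 had the same sign after novelty, and of the 75, 73 had the same sign untreated. The unadjusted interaction p was under 0.05 for 4 of the 144, 8 of the 60 and 24 of the 75 (3.43% of all genes). Genes called in 1 state and not in the other are chosen in part for a difference between states, so the shares among the 60 and the 75 are descriptions. None of these interactions passed after adjustment.

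Germline genes, which are normally silent in brain, held the most KO against wild-type calls of the lists described here, all higher in KO. Of 40 listed germline genes, 19 passed the count filter. Of these, 8 were higher in KO after novelty and 8 untreated (1.20% and 1.09% of all genes were higher). Genes with almost no counts in wild type could pass that filter only through the KO libraries. The counts are therefore a description and not a test against those shares. Tex14, a protein of the bridges between germ cells, had 11.7, 11.7 and 11.1 CPM in KO after novelty and 12.5, 10.5 and 12.9 CPM in untreated KO, against 0.691, 0.840 and 0.711 CPM in wild type after novelty and 0.555, 0.845 and 1.01 CPM untreated. It was higher in KO by 3.92 ± 0.18 log2 after novelty and 3.85 ± 0.19 untreated, and the interaction was 0.07 ± 0.26. D1Pas1, a testis RNA helicase, had 33 counts in KO after novelty and 88 in untreated KO, and 0 in all 6 wild-type libraries. The cytochrome c of testis, Cyct, had 56 counts in KO after novelty and 90 in untreated KO, against 4 in wild type after novelty and 6 untreated. These counts are sums over libraries of unequal depth and do not compare the states. Scaled for depth, Cyct had means of 0.983 CPM in KO after novelty and 1.02 CPM in untreated KO. For D1Pas1 these means were 0.576 and 0.936 CPM, and its novelty response in KO did not pass. Novelty responses of such genes in wild type rest on few counts. Spo11, the nuclease of meiotic recombination, had an interaction of 3.14 ± 0.95 at 0.756 CPM or less in every library.

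Markers of other cell types moved with parts of the contrast. All 13 tested choroid plexus markers had a negative interaction, with a median of -1.28 log2, and without untreated KO library 2 the median was -0.06. Their level, as mean log2(CPM + 0.5), was 3.77 in that library and 1.295 to 1.921 in the other 11. The 18 inhibitory neuron markers had a median interaction of 0.24, with 16 positive, among them Lhx6 (0.41 ± 0.14) and Calb2 (0.50 ± 0.19). Their level was 6.03 in KO novelty library 2 and 5.56 to 5.76 in the other 11, and without that library the median was 0.16. Without wild-type novelty library 2 it was 0.15. Oligodendrocyte markers were positive for 17 of 18 (median 0.16), meningeal fibroblast markers for 14 of 14 (median 0.38) and mitochondrially encoded genes for 0 of 9 (median -0.29). The oligodendrocyte median was 0.10 without untreated wild-type library 3. The meningeal median ranged between 0.15 (without KO novelty library 1 or wild-type novelty library 3) and 0.60 (without wild-type novelty library 2), and was 0.17 without untreated wild-type library 2 and 0.23 without untreated KO library 2. The level of the mitochondrial list was 8.51 to 8.65 in KO after novelty, 8.74 to 8.89 in untreated KO, 8.75 to 8.91 in wild type after novelty and 8.64 to 8.83 in untreated wild type. No member of these lists passed the interaction test. The part of tissue composition in the gene values above was not tested.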

How the data were processed

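RNA sequencing of mouse hippocampus was analysed in 12 libraries, 3 for each of KO after novelty, untreated KO, wild type after novelty and untreated wild type. The authors deposited unnormalized read counts for each Ensembl gene. The tools named in the submitters' processing notes are HTSeq 0.6.1, DESeq2, STAR 2.5.0c and SAMtools 1.3, and the build is GRCm38 (mm10). Per the labels' protocols the kit kept strand and reads were single, 50 nt long. HTSeq's strand setting and the annotation used are not given in those sources, so overlapping antisense genes may share counts. GENCODE M21 gave names to 46574 of the 47069 gene IDs. Reads in no feature made up 14.7 to 17.2% and ambiguous reads 0.765 to 0.826%, and both stayed out of library sizes. Depth was 16024152 to 45600483 counts in genes.

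Counts were fitted in R 4.3.3 with edgeR 4.0.16 over all 12 libraries: TMM scaling, filterByExpr (minimum count 10, minimum total 15), a quasi-likelihood test of each contrast, and Benjamini-Hochberg adjustment over all 16392 genes at 0.05. Fold changes use a prior count of 0.125. Standard errors are Wald errors scaled by the posterior quasi-dispersion. CPM use TMM factors, and list levels are means of log2(CPM + 0.5). Nothing says that libraries came from separate litters or days, so p-values measure the spread between pools. Lists are described by counts and medians with no test. Genes were named by a rule: Kdm5c, the 10 smallest interaction p in each direction at 1 CPM or more, the 10 largest rises and 5 largest falls with novelty, up to 4 members per list and direction that passed for novelty, and up to 4 germline genes. Other genes named were chosen after their values were seen, and a few genes the rule picks are not reported here. The members and lists were chosen with earlier results of these data known. Alternatives were DESeq2 1.42.0, RLE factors, no filter, a stricter filter (3 libraries of at least 1 CPM), a replicate block, limma 3.58.1 with sample quality weights, GC and length offsets, and libraries left out. Promoter sequences are from RefSeq (GRCm38.p6). The fit was checked on simulated counts.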

Additional observations from a re-analysis of the deposited data

How the results depend on the processing

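The count of 0 interaction genes held under DESeq2, RLE factors, the stricter filter, quality weights, GC and length offsets, both fits with the replicate block, all 12 fits with a library left out, and untreated KO library 2 and untreated wild-type library 1 left out together. It was 8 with no low-count filter and 331 with the deviating novelty libraries (KO library 2, wild-type library 1) left out (30 with offsets as well). The 8 included Slc17a6, Arhgap6, Cplx3, Vwc2l and Tshz2, all positive, and Egr2 and Ttr, negative. The cause was not tested.

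Counts of the other contrasts moved too, given here for KO novelty, wild-type novelty and mean novelty. They were 70, 218 and 429 with DESeq2, 101, 252 and 415 with no filter, 230, 678 and 1266 with quality weights, 53, 293 and 648 with offsets, 63, 451 and 454 with both deviating novelty libraries left out and 147, 593 and 786 with offsets as well. With the 2 untreated libraries left out they were 4, 9 and 71. With each library left out they ranged from 1 to 27, 4 to 102 and 91 to 298. KO against wild-type counts, after novelty and untreated, were 592 and 637 with quality weights, 355 and 348 with offsets, and 705 and 415 with both deviating novelty libraries left out (475 and 599 with offsets). The untreated count was 347 with no filter and 97 with the 2 untreated libraries left out. Leaving out each library gave 144 to 282 after novelty and 121 to 249 untreated.

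Replicate numbers are shared between groups. Of 18 same-numbered pairs 6 had deviations correlated above 0.1 (range -0.431 to 0.455), none of these 6 with an untreated wild-type library. Of 12 libraries 5 correlated best with their own number. These deviations also carry the GC trends of single libraries, so the check cannot decide whether the numbers pair the samples. Fits with and without a replicate block are therefore given. The replicate block gave 6 KO and 33 wild-type novelty calls. The block with offsets gave 51 and 255, with 491 for mean novelty and 318 for untreated KO against wild type. The median interaction of immediate early genes stayed negative in every alternative, between -0.35 and -0.12. Depth limits genes under 1 CPM, whose intervals reach 1.16 log2.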

Other observations

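Of 24 regulators of H3K4 methylation tested, 1 rose with novelty in the average over genotypes (Kdm5c itself, against 1.07% of all genes). None differed between genotypes by edgeR, against 1.34% of all genes after novelty and 1.24% untreated. With shares this small, such counts say little about a list of this size. The median interaction was -0.04. Kdm5b, the demethylase of the same family, had 112.0, 115.5 and 113.6 CPM in KO after novelty and 106.1, 99.7 and 105.9 CPM in untreated KO, against 119.3, 108.9 and 110.1 CPM in wild type after novelty and 102.3, 104.4 and 107.3 CPM untreated. Its interaction was 0.02 ± 0.08. Among 18 neuropeptide genes, Nts, the precursor of neurotensin, had an interaction of 1.08 ± 0.37, which did not pass. The median interaction of the list was 0.09. Of 34 glutamate and GABA receptor genes none changed with novelty in the average (1.35% of all genes did), and their median interaction was -0.06.

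With both deviating novelty libraries left out and offsets for GC content and length, the 30 genes called include the axon guidance receptor Dcc (-1.42 ± 0.22 log2), the layer marker and transcription factor Cux2 (0.74 ± 0.12), the scaffold gene Cnksr2 (-0.46 ± 0.07), the collagen gene Col23a1 (0.89 ± 0.14) and the potassium channel partner Dpp10 (1.11 ± 0.18). These are named from the calls of that fit, after their values were seen. With all 12 libraries the same genes had -0.75, 0.41, -0.25, 0.57 and 0.63, with unadjusted p of 0.203, 0.0501, 0.289, 0.0374 and 0.00187 by edgeR, in that order. Over the 30 genes, 29 had the same sign with all 12 libraries, the exception being Plec (0.44 and -0.02), and 6 had an unadjusted p under 0.05 there. Strbp had 0.67 with both left out and offsets and 0.10 with all 12. Dpp10 was not called without offsets (adjusted p = 0.103 by edgeR). Homer1, Bdnf and Egr2 were not among the 30.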
